A study of Mus musculus with 11 samples.

Results

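Complement is the plasma and tissue cascade by which C3 is cleaved and deposited on targets, and 8 of its genes were followed here across mammary gland regions that had been captured for periostin-lineage cells. They are the alternative pathway protease gene Cfd, the central component C3, the subunit genes C1qa, C1qb and C1qc of the recognition molecule C1q, the protease gene C1ra of the C1 complex, the component gene C4b, and Serping1, which encodes the C1 inhibitor. The members were chosen by name, as the rows of the deposited table whose target is 1 of these 8 genes, and each has 1 probe, so they make up 8 of 19962 target genes and 8 of 19965 endogenous probes. The samples are regions of frozen, fixed mammary gland from naive periostin lineage tracing mice, 3 mice in all, in which cells that express or once expressed periostin carry ZsGreen. Regions were picked by staining for podoplanin (Pdpn), which marks lymphatic vessels, or smooth muscle actin (SMA), which marks ducts and blood vessels. Only the ZsGreen-positive area of each was collected, so every region in both groups was collected for the same lineage and is untreated. Transcripts of other cell types were counted too, and the skeletal muscle gene Acta1 was the strongest probe in Pdpn-adjacent region 3. A signal reported here need not come from periostin-lineage cells. Of the 11 regions analysed here, numbers 2, 3, 4, 7, 8 and 11 are the 6 Pdpn-adjacent ones and numbers 1, 5, 6, 9 and 10 the 5 SMA-adjacent ones. The alleles behind the reporter and the age of the mice are not given in the sources used here. The mouse behind each region is not given either. With 6 and 5 regions from 3 mice, some regions of a group come from the same animal, and p-values computed over regions may then be too small.

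The cascade has several ways to begin. In the classical pathway C1q binds a target, and of the attached proteases C1r activates C1s, which cuts C4 and C2. In the alternative pathway factor D, the product of Cfd, cuts factor B on C3 that has already been activated. Both lead to cleavage of C3 and, further on, of C5, and the C1 inhibitor holds C1r and C1s in check. Liver makes most plasma complement, but tissue cells make some components themselves: Cfd is also called adipsin for its high expression in mouse fat, C1q is made mainly by macrophages, and fibroblasts express C1r, C1s, C3, C4 and Serping1. The mammary gland of a naive mouse lies in a fat pad, with resident macrophages around its ducts.

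Regions differed in depth. The Pdpn-adjacent regions held 22757 to 2271664 counts in total, with 22757, 81760 and 30316 in regions 2, 3 and 11, against 760761 to 3086323 in SMA-adjacent regions. Levels are given below as counts divided by the geometric mean of the 210 negative-control probes of the same region (times background), and the floor of a region is the mean plus 2 SDs of those probes on the log2 scale. In region 2, 90.0% of endogenous probes stood at a count of 1, below which the table never goes, and in region 11 77.6% did, so a level near 1 there may be no signal. The floor in regions 2 and 11 lay below a count of 2, so a count of 2 passed it, as 15 and 32 of the 210 negative probes themselves did there. In Pdpn-adjacent regions 3, 7 and 8 the floor lay at 10.4, 21.5 and 22.6 counts over backgrounds of 2.665, 6.87 and 7.83. Those floors are larger multiples of background than any SMA-adjacent floor, the largest being 55.8 counts over 22.6 in region 1. The same level thus passed the floor more easily in SMA-adjacent regions than in these 3. The share of all probes above the floor was 2.77% to 22.4% (region 11) in Pdpn-adjacent regions and 8.79% to 19.2% in SMA-adjacent regions, where it was lowest in region 5 and highest in regions 9 and 10. Of the 8 members, 2, 1, 6, 4, 8 and 5 were above the floor in Pdpn-adjacent regions 2, 3, 4, 7, 8 and 11, against 8 of 8 in SMA-adjacent regions 1, 6, 9 and 10 and 7 in region 5. Each target has its own probe, with its own efficiency, so levels of different genes are strengths of probe signal and not amounts of transcript. In a captured area, fewer cells of a type and less RNA per cell cannot be told apart.

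Cfd gave the strongest signal of the 8, and it was above the floor in every region, although in Pdpn-adjacent region 2 on a raw count of 4. It ranked 34, 20, 2, 1, 4 and 9 among all endogenous probes in Pdpn-adjacent regions 2, 3, 4, 7, 8 and 11, against 1, 2, 3, 1 and 1 in SMA-adjacent regions 1, 5, 6, 9 and 10. Its level was 3.81, 21.4, 107, 246, 122 and 55.1 times background in those Pdpn-adjacent regions, against 109, 59.7, 115, 216 and 226 times in those SMA-adjacent regions. The 3 Pdpn-adjacent regions under 100000 counts had the lowest levels of all, and the other 3 lay within or above the SMA-adjacent range. Within Pdpn-adjacent regions the level spanned 64.5-fold, and within SMA-adjacent regions 3.78-fold. In the deepest Pdpn-adjacent library, region 4, Cfd took 0.362% of all counts (95% Wilson interval 0.354% to 0.370%), and in SMA-adjacent region 10 0.617% (0.605% to 0.630%). These intervals cover counting error only.

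Between the groups Cfd did not pass the test. Its counts scaled to library size (CPM) averaged 2922 ± 2757 over Pdpn-adjacent regions (SD, n = 6) and 4396 ± 2021 over SMA-adjacent ones (SD, n = 5). The log2 fold change, Pdpn-adjacent minus SMA-adjacent, was -0.58 ± 1.47 SE (edgeR adjusted p = 1.00, 95% interval -3.59 to 2.44). Without the 3 regions under 100000 counts it was 0.14, with an interval of -2.26 to 2.54, so its sign changed when they were left out. The interval is wide enough to hold a change of several fold either way.

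C3, the component on which the pathways converge, was the second strongest. It stood at 0.952, 1.5, 18.9, 20.8, 10.9 and 1.78 times background in Pdpn-adjacent regions 2, 3, 4, 7, 8 and 11, against 11.0, 10.1, 16.3, 18.9 and 18.4 times in SMA-adjacent regions 1, 5, 6, 9 and 10. The Pdpn-adjacent regions split by depth: regions 2, 3 and 11 lay near background, on raw counts of 1, 4 and 2, and regions 4 and 7 lay above or level with the highest SMA-adjacent region. C3 averaged 288 ± 291 CPM over Pdpn-adjacent regions (SD, n = 6) and 458 ± 113 CPM over SMA-adjacent ones (SD, n = 5). Its log2 fold change was -0.47 ± 0.56 SE (edgeR adjusted p = 1.00, 95% interval -1.62 to 0.69) over all regions and 0.20 ± 0.44 SE (interval -0.71 to 1.1) without the 3 regions under 100000 counts. With limma-voom and array weights it was -1.71 for C3 and -2.40 for Cfd.

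Promoters are shown for 4 members: Cfd and C3, whose signal was highest, and C1qb and C1qc, neighbours on chromosome 4. The levels of C1qb and C1qc followed each other across the 8 regions of at least 100000 counts. The sequences are RefSeq's, build GRCm38.p6, the 250 bases before the start that its promoter table uses, written 5′ to 3′ on the gene's strand, in the regions chr10:79890603-79890852 (plus strand), chr17:57228137-57228386 (minus), chr4:136886201-136886450 (minus) and chr4:136892915-136893164 (minus). The last 22 bases of the C1qc window lie inside the span that the gene table gives for C1qc, and the other 3 windows end where their gene begins. Capitals mark matches, on either strand, to TTGCNNAA, a C/EBP motif, or to GAGGAA, the core bound by PU.1.
Cfd: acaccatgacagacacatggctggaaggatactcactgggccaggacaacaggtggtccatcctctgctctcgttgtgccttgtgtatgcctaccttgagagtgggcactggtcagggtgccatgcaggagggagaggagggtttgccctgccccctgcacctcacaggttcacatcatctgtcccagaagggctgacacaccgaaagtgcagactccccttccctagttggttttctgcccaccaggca
C3: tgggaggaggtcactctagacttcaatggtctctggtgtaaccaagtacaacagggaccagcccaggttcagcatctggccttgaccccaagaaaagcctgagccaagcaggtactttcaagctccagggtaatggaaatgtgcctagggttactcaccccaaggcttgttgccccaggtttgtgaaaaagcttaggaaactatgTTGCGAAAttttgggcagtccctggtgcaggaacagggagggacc
C1qb: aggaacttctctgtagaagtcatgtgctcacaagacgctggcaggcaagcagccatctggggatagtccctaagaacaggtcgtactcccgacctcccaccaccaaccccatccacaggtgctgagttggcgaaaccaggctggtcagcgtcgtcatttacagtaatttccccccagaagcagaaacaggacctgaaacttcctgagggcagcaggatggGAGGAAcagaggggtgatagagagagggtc
C1qc: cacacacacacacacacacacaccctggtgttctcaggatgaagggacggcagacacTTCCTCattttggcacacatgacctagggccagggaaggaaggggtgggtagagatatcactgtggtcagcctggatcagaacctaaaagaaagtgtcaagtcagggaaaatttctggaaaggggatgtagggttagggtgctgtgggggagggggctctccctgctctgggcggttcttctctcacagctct
Of the 5 members with an entry in the promoter table (these 4 and C1ra), 1 held TTGCNNAA, which 9.56% of all 32851 promoters held in the same window. C1qb and C1qc held GAGGAA, found in 23.3% of all promoters. Neither TATAAA nor TTCNNNGAA, the motif of STAT factors, lay in any of the 5, against 12.4% and 7.02% of all promoters. None of the motifs marked overlap. A match is a description of the letters and says nothing about binding.

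**Figure D1:**
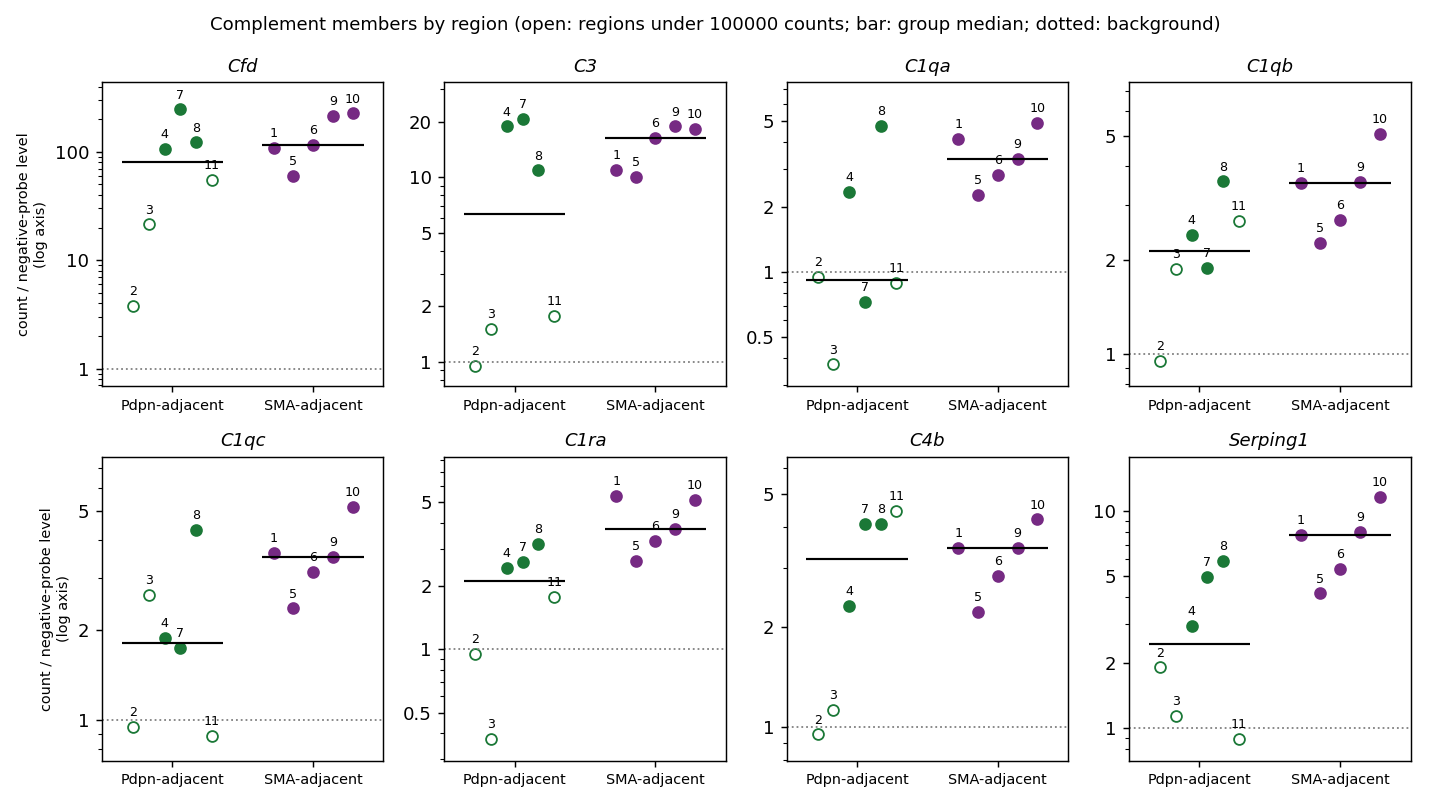
Level of each member in each region, as count divided by the negative-probe level (log axis), Pdpn-adjacent left and SMA-adjacent right; numbers are regions, open symbols regions under 100000 counts, bars group medians and the dotted line background. Cfd lay between 3.81 and 246 times background in Pdpn-adjacent and between 59.7 and 226 times in SMA-adjacent regions, and the open symbols were the lowest points for Cfd and C3.

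The 3 C1q genes gave weak signals that followed each other over the 8 regions of at least 100000 counts. C1qa stood at 0.375 to 4.73 times background in Pdpn-adjacent regions, with a median of 0.921, against 2.27, 2.80, 3.32, 4.11 and 4.90 times in SMA-adjacent regions 5, 6, 9, 1 and 10. C1qb stood at 0.952 to 3.58 times, median 2.15, in Pdpn-adjacent regions, against 2.28 to 5.07 times, median 3.54, in SMA-adjacent regions. C1qc stood at 0.889 to 4.34 times, median 1.82, in Pdpn-adjacent regions, against 2.37 to 5.17 times, median 3.53, in SMA-adjacent regions. All 3 were above the floor in each of the 5 SMA-adjacent regions, but among Pdpn-adjacent regions only in region 8. Part of that contrast lies in the height of the floor: C1qc at 2.63 times missed it in region 3, while 2.37 times passed in SMA-adjacent region 5. In region 7, which had the highest Cfd and C3, none of them was above the floor. The summed level of the trio was 2.86, 4.88, 6.65, 4.37, 12.6 and 4.45 times background in Pdpn-adjacent regions 2, 3, 4, 7, 8 and 11, against 11.3, 6.93, 8.62, 10.4 and 15.1 times in SMA-adjacent regions 1, 5, 6, 9 and 10. Regions 2, 3 and 11 rest on 3, 13 and 5 raw counts for the 3 genes together.

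None of the C1q genes passed the threshold between the groups. Their log2 fold changes were -0.60 ± 0.29 SE for C1qa (adjusted p = 0.813 with edgeR), -0.44 ± 0.22 SE for C1qb (adjusted p = 0.860) and -0.57 ± 0.24 SE for C1qc (adjusted p = 0.761). The fold change of C1qa was -2.2 without regions 4 and 8, the 2 Pdpn-adjacent regions where the gene was above the floor. Leaving those out enlarges the drop by design. Without regions 3 and 7 it was -0.26, and both choices were made after seeing the data. In CPM the groups overlapped for each of the 3, with 4, 3 and 4 of the 6 Pdpn-adjacent regions under the whole SMA-adjacent range for C1qa, C1qb and C1qc and region 8 within the SMA-adjacent range for all of them. C1qb averaged 72.5 ± 24.0 CPM over Pdpn-adjacent regions (SD, n = 6) and 105 ± 27.1 CPM over SMA-adjacent ones (SD, n = 5). The probes lie within an interval of chromosome 4 where the 3 genes stand side by side, at 136896483 to 136896526 (C1qa), 136880613 to 136880652 (C1qb) and 136890403 to 136890438 (C1qc) on GRCm38.p6, each inside its gene.

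C1ra, which encodes a C1r protease, was the 1 member whose groups did not overlap in CPM. It averaged 61.0 ± 29.5 CPM over Pdpn-adjacent regions (SD, n = 6) and 123 ± 29.9 CPM over SMA-adjacent ones (SD, n = 5), and the highest Pdpn-adjacent region, 83.8 CPM, lay below the lowest SMA-adjacent one, 90.4 CPM. Regions 2, 3 and 11 carried raw counts of 1, 1 and 2. Of all 19935 probes tested, 78 (0.391%) had all 6 Pdpn-adjacent regions below all 5 SMA-adjacent regions, and 0.446% had them all above, as 0 members did. On the scale of background the groups did overlap, running from 0.375 to 3.19 times over Pdpn-adjacent regions and from 2.64 to 5.35 times over SMA-adjacent ones. The log2 fold change was -0.73 ± 0.25 SE (edgeR adjusted p = 0.639, 95% interval -1.26 to -0.21). The probe lies at chromosome 6, 124522369 to 124522403, inside the gene. C1ra has a close paralog, C1rb, whose own probe stood at a median of 1.19 times background in Pdpn-adjacent and 1.32 times in SMA-adjacent regions. Whether either probe also binds the transcript of the other copy could not be checked here.

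Serping1 had the largest fitted difference of the 8. It stood at 1.90, 1.13, 2.96, 4.95, 5.88 and 0.889 times background in Pdpn-adjacent regions 2, 3, 4, 7, 8 and 11, against 7.74, 4.17, 5.40, 8.04 and 11.6 times in SMA-adjacent regions 1, 5, 6, 9 and 10. In CPM, 4 of 6 Pdpn-adjacent regions lay below every SMA-adjacent region, and the other 2, regions 7 and 8, lay between SMA-adjacent regions 5 and 6. The mean was 92.5 ± 54.4 CPM over Pdpn-adjacent regions (SD, n = 6) and 225 ± 75.4 CPM over SMA-adjacent ones (SD, n = 5). The log2 fold change was -1.04 ± 0.34 SE (edgeR adjusted p = 0.589, 95% interval -1.74 to -0.33), and -0.77 ± 0.34 SE (adjusted p = 1.00) without the 3 regions under 100000 counts. Its probe lies on chromosome 2, 84773170 to 84773205, inside the gene.

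C4b, which encodes the C4 that C1s cuts, differed least. It stood at 0.952, 1.13, 2.32, 4.08, 4.09 and 4.45 times background in Pdpn-adjacent regions 2, 3, 4, 7, 8 and 11, against 3.45, 2.22, 2.85, 3.45 and 4.21 times in SMA-adjacent regions 1, 5, 6, 9 and 10. Pdpn-adjacent regions held both the lowest and the highest values, and the highest, in region 11, rests on a raw count of 5. The log2 fold change was -0.09 ± 0.24 SE (edgeR adjusted p = 1.00, 95% interval -0.58 to 0.39). C4b has a near-identical copy, C4a, whose probe stood at a median of 1.91 times background in Pdpn-adjacent and 1.98 times in SMA-adjacent ones (log2 fold change 0.06), so a split of signal between the copies is uncertain. The probes of C4b and C3 both lie on chromosome 17, at 34734756 to 34734790 and 57219563 to 57219598, and that of Cfd on chromosome 10, 79891762 to 79891797.

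Set together, 0 of the 8 members passed the threshold of an adjusted p of 0.05 with edgeR, and DESeq2 and limma-voom likewise called 0. Over all 19935 probes edgeR called 2 (0.01%), both higher in Pdpn-adjacent regions. At an unadjusted p under 0.05, 4 members were lower (Serping1, C1ra, C1qc and C1qa) and 0 higher, where 3.19% of all probes were lower and 2.84% higher. Without the 3 regions under 100000 counts 3 members were lower at that p (C1ra, Serping1 and C1qc) and 0 higher, against 2.16% of all probes lower and 1.74% higher. All 8 fold changes were below 0, as were 48.8% of all probes. The median of the 8 was -0.57, against 0.01 over all probes tested. All 8 members had a median level of at least 2 times background, as did 2986 of the probes tested. Fold changes of those 2986 had a median of -0.09 and quartiles of -0.24 and 0.04, so most of them were below 0 too. The exact share of the 2986 below 0 was not counted, nor was their share lower at an unadjusted p under 0.05. The shares of all probes given above thus cover mostly probes of lower level than the members. The members were chosen with results of these data known, so these counts describe them and test nothing about the cascade as a whole.

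**Figure D2:**
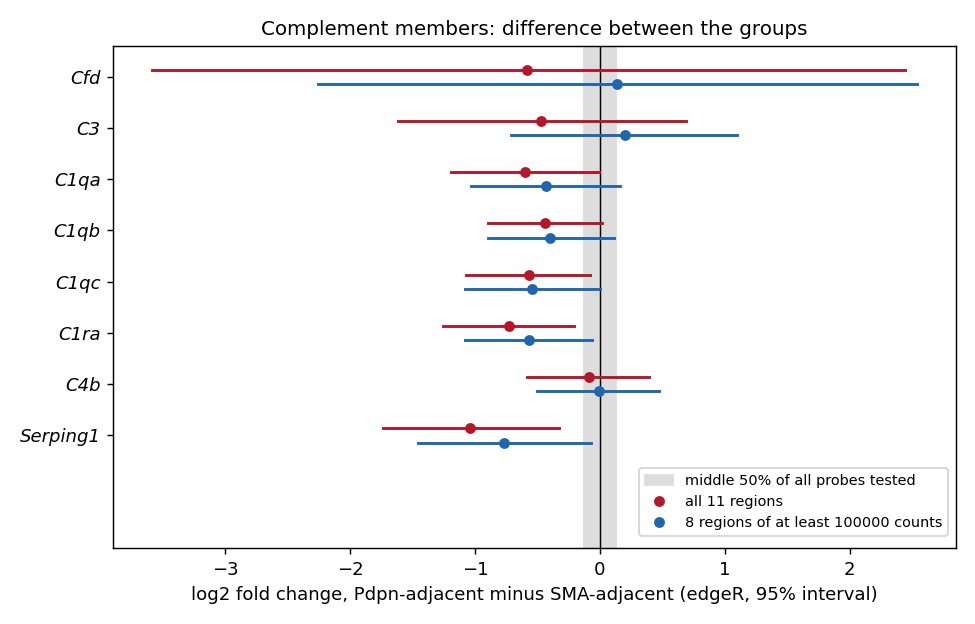
Log2 fold change of each member, Pdpn-adjacent minus SMA-adjacent, with its 95% interval from edgeR, over all 11 regions (red) and over the 8 regions of at least 100000 counts (blue); the grey band holds the middle 50% of all probes tested, -0.13 to 0.13. Cfd and C3 changed sign between the fits, at -0.58 and 0.14 for Cfd and -0.47 and 0.20 for C3, while Serping1 stayed at -1.04 and -0.77.

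The rest of the cascade was mostly near background. Of 45 other complement genes, 0 passed with edgeR in either direction, 1 was lower and 0 higher at an unadjusted p under 0.05, and 6 had a median level of at least 2 times background over the 11 regions. Their median log2 fold change was 0.00, and that of the 6 was -0.19, with all 6 below 0. The 2986 probes tested with such a level had a median of -0.09 and quartiles of -0.24 and 0.04. Most probes of that level were thus below 0 too, and a lean below 0 was not particular to these 6 genes. Among the 14 genes of the classical and lectin pathways (median 0.02) the strongest were Fcna, a ficolin that recognises sugars, at a median of 2.45 times background in Pdpn-adjacent and 3.13 times in SMA-adjacent regions, C1s1, the partner protease of C1r, at 1.5 and 2.62 times, and C2, at 1.51 and 2.43 times. Of both alternative pathway genes, Cfp, which encodes the stabilising factor properdin, stood at 1.28 times in Pdpn-adjacent and 2.57 times in SMA-adjacent regions. Cfb, which encodes the substrate of factor D, was above the floor in 0 of 6 Pdpn-adjacent and 0 of 5 SMA-adjacent regions, at medians of 0.921 and 0.869 times background.

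Of 13 regulators (median log2 fold change -0.07), Clu, which encodes the terminal inhibitor clusterin, was the strongest, at 2.40 times background in Pdpn-adjacent and 3.14 times in SMA-adjacent regions. Cd55, Cd59a and Cr1l, which encode membrane inhibitors, stood at 1.70, 1.59 and 1.97 times in Pdpn-adjacent and 2.21, 2.03 and 1.5 times in SMA-adjacent regions, and Cfi, the protease that inactivates C3b, at 1.43 and 1.95 times. Of 9 receptors (median 0.04), 0 had a median of at least 2 times background over the 11 regions, and C3ar1, the receptor for C3a, and Vsig4, a macrophage receptor for C3b, had the highest medians over those regions, at 1.90 and 1.82 times in Pdpn-adjacent and 1.86 and 1.85 times in SMA-adjacent regions. Of 7 genes of the terminal pathway (median 0.00), 0 had such a median.

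The gene lower at an unadjusted p in these lists was low in signal, and it is named because its values stood out. C7, a component of the membrane attack complex, stood at 0.952, 1.5, 0.821, 0.728, 1.28 and 0.889 times background in Pdpn-adjacent regions 2, 3, 4, 7, 8 and 11, against 1.59, 1.36, 1.57, 2.62 and 1.62 times in SMA-adjacent regions 1, 5, 6, 9 and 10. It was above the floor in 0 of 6 Pdpn-adjacent and 1 of 5 SMA-adjacent regions, region 9. Its fold change was -0.93 ± 0.21 SE on the log2 scale, with an edgeR adjusted p of 0.120 that became 0.0278 without SMA-adjacent region 5 and ran from 0.0278 to 0.957 over its alternatives. The fold change itself ran from -0.69 with limma-voom and array weights to -1.03 with 1 taken from every count, with 1 exception. It was -4.44 with background subtracted in regions of at least 100000 counts. That setting puts counts below background at 0, and C7 lay below background in Pdpn-adjacent regions 4 and 7. The size of -4.44 therefore rests on very few counts. Region 9 also had the highest summed level of 8 smooth muscle markers, 199 times background, against 9.52 to 34.9 times over the Pdpn-adjacent and 37.3 to 102 times over the other SMA-adjacent regions. Without region 9 the fold change of C7 was -0.73 (edgeR adjusted p = 0.141). Region 10, at 102 times for these markers, had C7 at 1.62 times. The part of smooth muscle in the level of C7 was not tested.

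**Figure D3:**
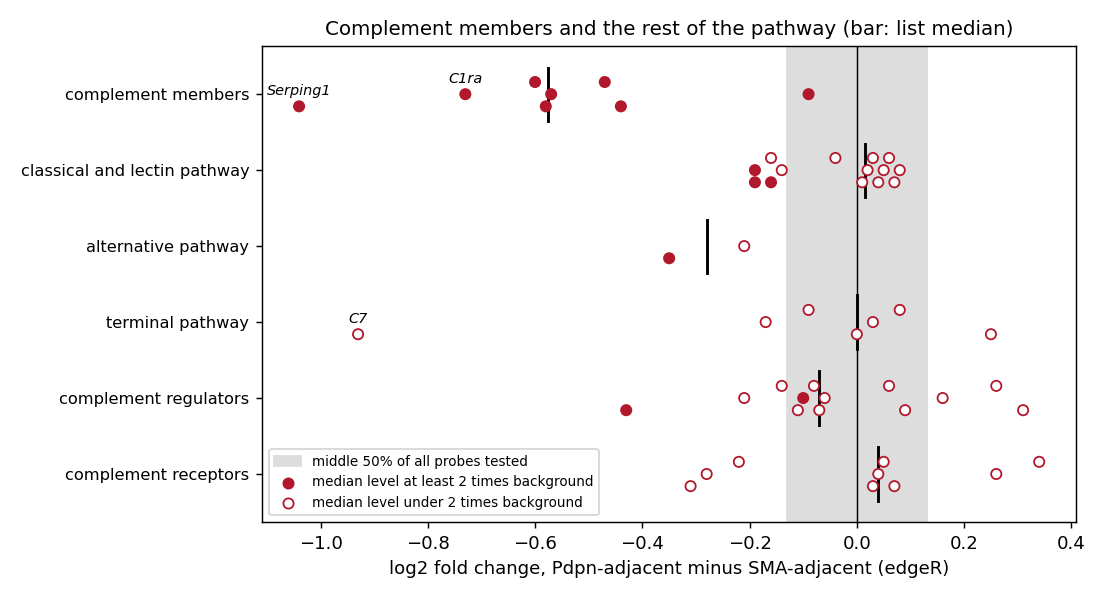
Log2 fold change, Pdpn-adjacent minus SMA-adjacent, of the 8 members and of 45 other complement genes by list; filled symbols have a median level of at least 2 times background, black bars are list medians and the grey band holds the middle 50% of all probes tested. The member median was -0.57, the medians of the other lists lay between -0.28 and 0.04, and C7 was the lowest of the other genes shown, at -0.93.

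Markers of the cell types known to make these transcripts were measured in the same areas. Of 12 adipocyte markers, 11 or 12 were above the floor in 9 of the 11 regions, and 1 and 5 in Pdpn-adjacent regions 2 and 3, where 11 and 0 of them stood at a count of 1. Their summed level was 12.4 to 480.4 times background in Pdpn-adjacent regions (median 194) and 191 to 549 times in SMA-adjacent regions (median 367). Fabp4, the fatty acid carrier of fat cells, ran from 0.952 to 129 times over Pdpn-adjacent regions and from 67.3 to 191 times over SMA-adjacent ones. The carbonic anhydrase Car3 ran from 0.952 to 170.1 and from 57.2 to 165 times, and the lipid droplet gene Cidec from 0.952 to 37.0 and from 13.9 to 36.1 times. The 3 regions with the highest adipocyte sum, Pdpn-adjacent region 7 and SMA-adjacent regions 9 and 10, were also the 3 with the highest Cfd, and regions 2, 3 and 11 were lowest in both. Fat cell transcripts were measured in both groups, and their part in the level of Cfd was not tested.

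Macrophage markers were weak, as the C1q genes were. Of 14, between 0 and 6 were above the floor in Pdpn-adjacent regions, the 6 in region 11, and between 3 and 7 in SMA-adjacent regions. At an unadjusted p under 0.05, 3 were lower (Tyrobp, Mertk and Csf1r) and 1 higher (Cd14, log2 fold change 0.44), with a list median of -0.18 and 0 called. Tyrobp, Mertk and Cd14 are named because of these values. The summed level of the 14 was 14.3 to 27.0 times background over Pdpn-adjacent regions (median 21.4), against 23.3 to 30.8 times over SMA-adjacent ones (median 26.3). By the median over all 11 regions the strongest were Csf1r, the receptor for macrophage colony-stimulating factor, at medians of 2.19 times in Pdpn-adjacent and 3.56 times in SMA-adjacent regions, Adgre1, which encodes F4/80, at 2.52 and 2.79 times, and Aif1 at 1.86 and 2.83 times. The 3 highest regions for the C1q sum, SMA-adjacent region 10, Pdpn-adjacent region 8 and SMA-adjacent region 1, were also the 3 highest for the macrophage sum, at 30.8, 27.0 and 28.4 times. In Pdpn-adjacent region 7, where the C1q genes were below the floor, 0 of the 14 markers were above it. The floor of region 7 was a larger multiple of background than that of any SMA-adjacent region. Adgre1 at 2.62 times did not pass it, while 2.13 times passed in SMA-adjacent region 9. The share of macrophages in the C1q levels was not tested.

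Of 11 fibroblast markers, 0 to 10 were above the floor in Pdpn-adjacent and 7 to 11 in SMA-adjacent regions, and in region 2 all 11 stood at a count of 1. Their summed level was 10.5 to 132 times background (median 56.0) in Pdpn-adjacent and 76.3 to 237 times (median 163) in SMA-adjacent regions, and 6 of the 11 were lower at an unadjusted p under 0.05 (median log2 fold change -0.72, 0 called). The strongest were Gsn, which encodes the actin-severing protein gelsolin, at medians of 18.2 times in Pdpn-adjacent and 43.7 times in SMA-adjacent regions, and the collagen genes Col3a1, at 9.15 and 29.8 times, and Col1a1, at 7.38 and 27.4 times. SMA-adjacent regions 10, 9 and 1 were the 3 highest for this sum and for Serping1, and regions 2, 3 and 11 the 3 lowest for both. This ranking was not particular to fibroblast markers. The blood endothelial sum had the same 3 highest regions (35.3, 32.4 and 31.7 times) and the same 3 lowest. The smooth muscle sum also had these 3 regions highest, at 102, 199 and 60.8 times in regions 10, 9 and 1. Postn itself was weak, at medians of 1.52 times in Pdpn-adjacent and 2.09 times in SMA-adjacent regions. The part of fibroblast number in the levels of Serping1 and C1ra was not tested.

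Markers of other cell types also differed between regions. Of 8 skeletal muscle markers, 6 were higher at an unadjusted p under 0.05 (median log2 fold change 2.21, 0 called), and their summed level was highest in Pdpn-adjacent regions 3 and 7, at 730.1 and 333 times background, against at most 93.0 times in SMA-adjacent regions. All 8 luminal epithelial markers were higher at that p (median 0.83), with sums of 8.89 to 26.8 times over Pdpn-adjacent regions and 10.9 to 14.4 times over SMA-adjacent ones, highest in regions 8 and 4. Among them 1, the casein gene Csn3, passed the adjusted threshold (edgeR adjusted p = 0.0413). Csn3 was low in signal, at medians of 1.91 times in Pdpn-adjacent and 1.12 times in SMA-adjacent regions. It was above the floor in 2 of 6 Pdpn-adjacent regions, in region 11 on a raw count of 2, and in 0 of 5 SMA-adjacent ones. Of 8 smooth muscle markers 7 were lower at that p (median -2.13). This list includes Acta2, the gene of the smooth muscle actin stained to pick SMA-adjacent regions, so it is not independent of how the groups were made. Of 8 blood endothelial markers 3 were lower at that p (median -0.44), with sums of 7.61 to 28.1 times over the Pdpn-adjacent regions and 15.5 to 35.3 times over the SMA-adjacent ones. Lymphatic endothelial markers, which would mark the vessels that podoplanin was used to find, were near background: 0 of 7 had a median of at least 2 times background over the 11 regions and 0 were lower or higher at that p (median -0.08), with sums of 6.66 to 12.1 times over Pdpn-adjacent regions and 9.99 to 11.9 times over SMA-adjacent ones. The part of any of these cells in the levels of the 8 members was not tested.

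**Figure D4:**
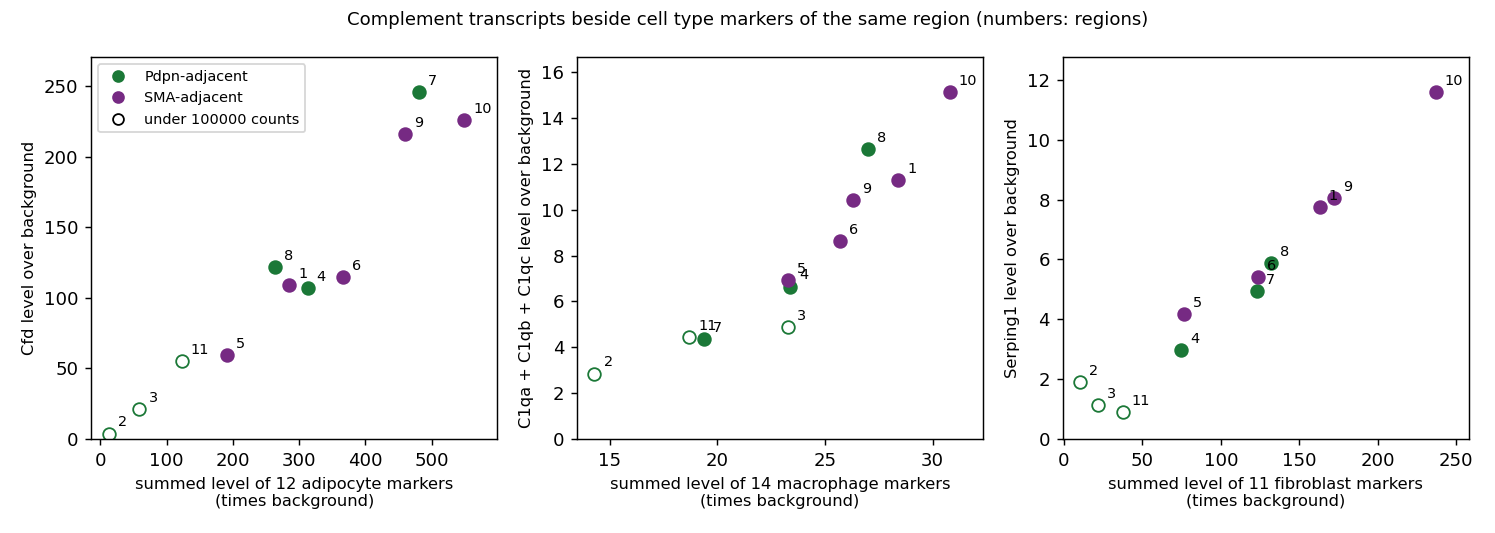
Level of Cfd, of the 3 C1q genes summed and of Serping1 in each region (vertical, times background) against the summed level of the adipocyte, macrophage and fibroblast markers (horizontal, times background); green is Pdpn-adjacent, purple SMA-adjacent, open symbols are regions under 100000 counts and numbers are regions. Region 7 was highest for Cfd, at 246 times, and region 10 for the C1q sum and Serping1, at 15.1 and 11.6 times.

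How the members varied together was described by Pearson's r of log2 CPM over the 8 regions of at least 100000 counts (3 Pdpn-adjacent and 5 SMA-adjacent). These values describe 8 regions that differ in depth and in share of signal over background, and carry no test. C1qb and C1qc were most alike (r = 0.918), followed by C1ra and Serping1 (0.854), C1qa and C1qc (0.853) and C1qa and C1qb (0.844). Serping1 was nearly as close to C1qb and C1qc (0.789 and 0.784), and C1ra to C1qb (0.782). Cfd had r = 0.788 with C4b and 0.713 with C3, against -0.342 to 0.151 with the C1q genes, and C3 had 0.182 with C4b and -0.515 with C1qa. Among 2381 probes above the floor in at least 4 of those regions, those most like Serping1 were 3 fibrillar collagen genes, Col1a2, Col3a1 and Col1a1 (r = 0.971, 0.962 and 0.959). Those most like Cfd were Sod1, a superoxide dismutase, Srebf1, a regulator of lipid synthesis, and Calm2, a calmodulin gene (0.988, 0.976 and 0.970). C3 was nearest to the mitochondrial genes Mccc1, Sdhb and Ndufb5 (0.961, 0.948 and 0.942). C1qb and C1qc both had Cd74, the MHC class II invariant chain, among their 3 nearest (0.961 and 0.948), C1qb with Adgrf5 and the cathepsin gene Ctsl (0.970 and 0.967) and C1qc with Rab5c and Cd209f (0.961 and 0.955). C1qa was nearest to Slc29a1, Fbxw2 and Setd7 (0.972, 0.964 and 0.963), C1ra to Cpe, Fkbp9 and Timp2 (0.942, 0.929 and 0.925), and C4b to Sap18, Nudt4 and Ube2l3 (0.967, 0.965 and 0.956). With so many candidates over 8 regions, high values arise in number, and nothing is drawn from them about shared function.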

How the data were processed

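The values the authors deposited, 1 per probe and region, are whole numbers with unequal totals and are called raw counts here. None lies below 1, so a value of 1 may stand for no count. The sources used here do not say whether 1 was added or zeros were raised to 1, nor how reads became counts. Areas were collected on the GeoMx platform with mouse Whole Transcriptome Atlas probes, per the labels' protocols, which count 12 areas, 11 of them analysed here. The file headers give GRCm38.p6 as the build of probe positions. All 8 members matched the RefSeq gene table.

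Negative-control probes were left out of library sizes (total counts as in the report). Probes kept by filterByExpr (19935) were tested with the quasi-likelihood test of edgeR 4.0.16 in R 4.3.3, with TMM scaling, two-sided, Benjamini-Hochberg adjustment over all probes and a threshold of 0.05. CPM are counts scaled to a common TMM-adjusted depth, SEs are those implied by the test, and intervals are 95%. Log2 CPM used a prior count of 2. Alternatives left out regions, or changed the filter, the scaling, the counts or the tool (DESeq2 1.42.0, limma 3.58.1). Wilson intervals came from scipy 1.17.1.

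The members and lists were chosen with earlier results of these data known. The rule for named genes took the members, the 12 other complement genes and 3 markers per list of highest median level, any called gene and the 3 probes most like each member. The result of 1 gene is not reported here.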

Additional observations from a re-analysis of the deposited data

How the results depend on the processing

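Over 23 alternatives (3 of them, without regions 4 and 8, without regions 3 and 7 and with background subtracted in regions of at least 100000 counts, chosen after seeing the data) 0 members passed the threshold. C1qa, C1qb, C1qc, C1ra and Serping1 kept a fold change below 0 in all 23, with adjusted p-values from 0.0671 to 1.00. C1qa ran from -2.2 (without regions 4 and 8, edgeR adjusted p = 0.0671) to -0.26 (without regions 3 and 7), C1qb from -0.72 to -0.28 and C1qc from -0.88 to -0.42. Regions 4 and 8 were the 2 Pdpn-adjacent regions where C1qa was above the floor, so leaving them out enlarges its drop by design. C3 turned to 0.20 without the regions under 100000 counts and 0.16 with background subtracted, and Cfd to 0.14 and 0.06. With limma-voom and array weights they were -1.71 and -2.40 (unadjusted p = 0.0294 and 0.00854, adjusted p = 0.673 for both). C4b turned to 0.06 among probes above the floor in at least 3 regions, 0.03 without regions 4 and 8 and 0.11 with array weights, a setting that moved the median of all probes to 0.11. Leaving out 1 region at a time gave -0.24 to 0.06 for C4b, -0.81 to -0.23 for C3, -0.91 to -0.42 for C1qa, -0.53 to -0.28 for C1qb, -0.82 to -0.43 for C1qc, -1.16 to -0.33 for Cfd, -1.21 to -0.84 for Serping1 and -0.84 to -0.61 for C1ra.

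The members lower at an unadjusted p under 0.05 numbered 2 with libraries scaled by negative-control probes, 2 among probes above the floor in at least 3 regions, 2 without regions 3 and 7, and 2 to 5 with 1 region left out (2 without region 4, 7 or 10). Other complement genes called numbered 1 (C7) with 1 taken from every count and 0 to 1 with 1 region left out, 1 being C7 without SMA-adjacent region 5.

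Over all probes, calls higher in Pdpn-adjacent regions numbered 1 with scaling by negative-control probes, among probes above the floor in at least 3 regions, without the regions under 100000 counts, with background subtracted, with DESeq2 and with limma-voom, 25 with 1 taken from every count, 22 with the negative-probe covariate, 13 without regions 4 and 8, 14 without regions 3 and 7, and 1 to 12 with 1 region left out. Calls lower numbered 32 with 1 taken from every count, 22 with the covariate, 16 with DESeq2 and 0 to 41 with 1 region left out. The causes were not tested. No paired analysis was possible because the groups share no region number and no label ties a region to a mouse. Depth limits regions 2, 3 and 11, where a count of 1 stands at 37.5, 12.3 and 34.3 CPM.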
